A study of Mus musculus with 6 samples.

Results

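The 37 genes described here encode the proteins that copy DNA in S phase, from the MCM helicase to the histone chaperones behind the fork. Their probes were found by gene symbol in the array's own annotation. All 37 symbols were found, read by 51 of the 41174 non-control probes (27376 distinct gene names in all), and each gene is given by its probe with the highest mean signal over the 6 arrays. All 37 of these probes were well above background on every one of the 6 arrays, so that no gene was lost to the filter on dim probes.

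The arrays compared induced regulatory T (iTreg) cells from 3 miR-31fl/fl CD4Cre mice (cKO), in which a Cre recombinase under the Cd4 promoter removes the floxed miR-31 gene from T cells, with iTreg cells from 3 miR-31fl/fl control mice that carry the same floxed alleles. The mice were 6 weeks old and on the C57BL/6 background. Naive CD4+ T cells (CD25-, Foxp3gfp-, CD62Lhi) were sorted from spleen and, per the labels, kept for 4 days on bound anti-CD3 antibody at 5 μg/ml, with anti-CD28 at 2 μg/ml, TGF-β1 at 5 ng/ml and IL-2 at 40 ng/ml. The study's methods name lymph nodes as well as spleen as the source and a lower dose of IL-2. RNA from each mouse's culture was read on 1 one-colour Agilent whole mouse genome array, and the numbers 1, 2 and 3 only name the arrays of a group. Because Cd4 is expressed before the CD4 and CD8 lineages part, this Cre acts in both. The labels give no measure of how many cells had divided by day 4.

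DNA replication is prepared in G1, when the origin recognition complex, Cdc6 and Cdt1 load the MCM2-7 helicase onto origins. In S phase the helicase is switched on, primase and the polymerases copy both strands behind it, the PCNA clamp holds the polymerases on DNA, and ribonucleotide reductase and thymidylate synthase supply the deoxynucleotides. Most of these genes are transcribed at the G1/S border by E2F factors, which the pocket proteins restrain in resting cells. A naive T cell is quiescent and induces the whole set when its antigen receptor and CD28 are engaged, so that the transcripts are known as markers of a dividing T-cell culture.

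The gene deleted in the cKO mice encodes a microRNA that is not itself on the array: 0 probes carry its name, so the deletion could not be checked here. Its mature strands are shown because they define the genotype. They are the RefSeq sequences from chromosome 4, minus strand, of GRCm38.p6, at chr4:88910614-88910635 for the 5p strand and chr4:88910577-88910599 for the 3p strand, with the seed (bases 2 to 8) in capitals.
mmu-miR-31-5p: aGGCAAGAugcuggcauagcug
mmu-miR-31-3p: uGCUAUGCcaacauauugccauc

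The promoters were searched to describe the genes, which were chosen by their role in replication. Whether the matches have a part in the values below was not tested. The RefSeq promoter table (GRCm38.p6) holds 32 of the 37 genes, as windows from 250 bases before to 50 bases after the start of transcription, while Mcm4, Gmnn, Rfc2, Prim2 and Pole are named only. An E2F-type motif was taken as any of TTTCCCGC, TTTCGCGC, TTTGCCGC and TTTGGCGC on either strand. Matches to it were present in 13 of the 32 genes (40.6%), against 704 of all 27025 genes in the table (2.60%). The CCAAT box, CCAAT on either strand, was found in 20 of the 32 genes (62.5%) and in 41.1% of all genes. The cell cycle homology (CHR) element, TTTGAA or TTCGAA on either strand, was found in 6 of the 32 genes (18.8%) and in 21.7% of all genes. Matches that overlap one another were each counted, and a match is a description of the letters, not of a bound site.

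**Figure D1:**
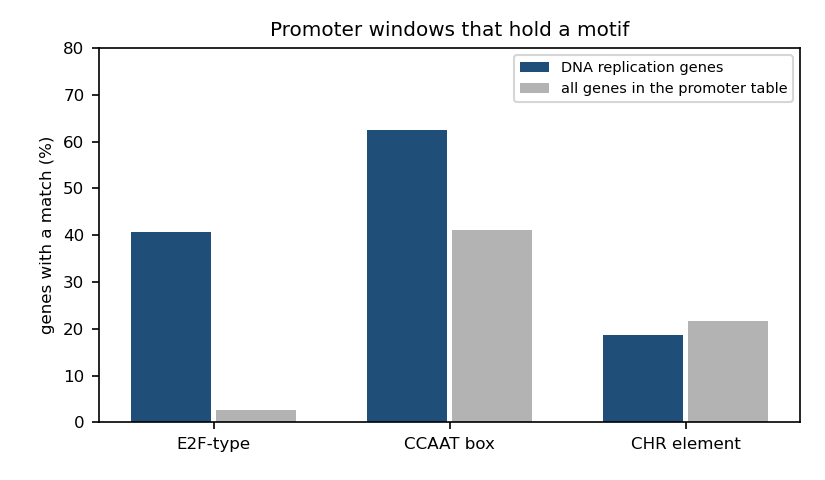
Share of genes (%, y axis from 0) whose promoter window holds each motif, for the 32 DNA replication genes with a promoter in the RefSeq table (dark bars) and for all 27025 genes in it (grey bars). The E2F-type bar stands at 40.6% for the replication genes and 2.60% for all genes, whereas the CHR bars, 18.8% and 21.7%, are nearly level.

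The 13 genes with an E2F-type match were Mcm3, Mcm5, Mcm6, Mcm7, Cdc6, Cdt1, Rfc3, Pola1, Pold1, Pole2, Lig1, Uhrf1 and Dnmt1. The stretches shown are those that lie wholly upstream of the start, 8 windows from 7 of the genes, on the gene's own strand with the matched bases in capitals. In the first Mcm6 window and in the Mcm5 window a pair of matches overlap on opposite strands, which makes a 12-base near-palindrome.
Mcm5, chr8:75109336-75109387, plus strand: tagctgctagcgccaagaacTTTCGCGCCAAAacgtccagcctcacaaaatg
Mcm6, chr1:128359784-128359835, minus strand: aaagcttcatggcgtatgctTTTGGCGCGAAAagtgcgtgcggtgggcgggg
Mcm6, chr1:128359725-128359772, minus strand: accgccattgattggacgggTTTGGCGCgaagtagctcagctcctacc
Mcm7, chr5:138172021-138172068, minus strand: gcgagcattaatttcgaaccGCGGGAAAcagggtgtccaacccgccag
Cdc6, chr11:98907993-98908040, plus strand: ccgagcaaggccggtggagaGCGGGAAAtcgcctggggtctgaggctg
Uhrf1, chr17:56304108-56304155, plus strand: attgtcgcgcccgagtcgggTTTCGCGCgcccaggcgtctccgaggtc
Pola1, chrX:93632266-93632313, minus strand: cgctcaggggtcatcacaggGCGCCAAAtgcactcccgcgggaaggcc
Dnmt1, chr9:20952815-20952862, minus strand: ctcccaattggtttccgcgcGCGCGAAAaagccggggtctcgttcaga

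Before the values, the arrays themselves were compared. Levels are on the log2 scale relative to the 75th percentile of the processed signal on the same array, so that 0 is that percentile. Across all tested probes the Pearson correlation between control arrays was 0.984 to 0.989, and between cKO arrays 0.974 to 0.985. cKO 3 stood apart, with correlations of 0.963, 0.963 and 0.948 to the 3 control arrays, and weights fitted to the arrays gave it 0.18, the lowest of the 6. The 3 cKO arrays and control 1 were on 1 slide and control 2 and control 3 on the other. The medians of the main lists are therefore given with and without cKO 3 and within the slide that holds both genotypes. For some smaller lists and single genes only part of these values is given. With 3 mice in each group, the exact permutation test cannot go below 0.10.

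In 36 of the 37 DNA replication genes the mean level in cKO iTreg cells was below that of the control, with a median log2 fold change of -0.48, and Prim2 alone was above it at 0.03, but none passed the test across all probes. Over all 22281 probes tested, 55.2% were below 0 and the median was -0.04. At an adjusted p of 0.05 in limma the count was 0 of the 37, against 54 of all 22281 probes (0.242%), and the smallest adjusted p among them was that of Rrm2, 0.0734. At an unadjusted p under 0.05, 11 genes were lower (29.7%) and 0 higher, where 11.4% of all probes were lower and 11.5% higher. The count of lower genes depended on the processing. It was 3 with median scaling (8.11% against 8.32% of all probes) and 2 by the test of the methods (5.41% against 8.68%). With array weights it was 18 (48.6% against 15.3%). In 26 of the 37 genes all 3 cKO arrays were below the lowest control array, and in 0 all were above the highest, against 20.7% and 15.9% of the 22262 probes with a value on every array. In a culture read in bulk, fewer cycling cells and less of each RNA per cell cannot be told apart.

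**Figure D2:**
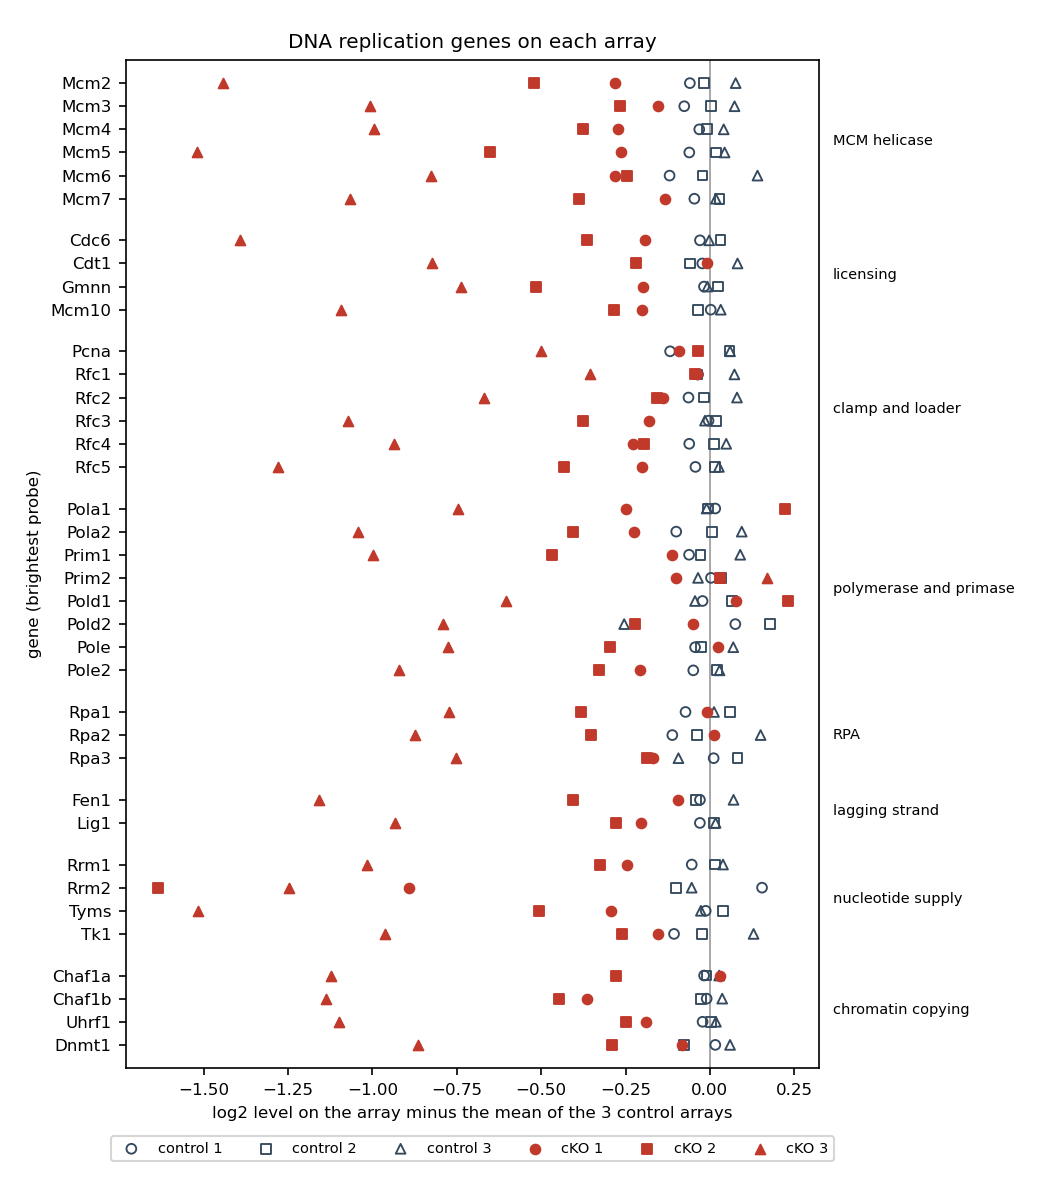
Level of each of the 37 genes on each array, as its log2 distance from the mean of the 3 control arrays (x axis), with genes in rows grouped by role. Open symbols are control arrays and filled symbols cKO arrays. The control symbols gather near 0, cKO 3 (filled triangles) lies farthest to the left in 35 rows, and Rrm2 is the row in which all 3 cKO arrays are far from the controls.

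How far the genes were down differed between the 3 cKO cultures. Relative to the control mean, the median over the 37 genes was -0.18 on cKO 1, -0.30 on cKO 2 and -0.96 on cKO 3, while the control arrays read -0.03, 0.00 and 0.04. cKO 3 was the lowest of the 6 arrays for 35 of the 37 genes, as it was for 35.2% of all probes, and the exceptions were Rrm2 and Prim2. cKO 1 was below all 3 controls for 28 genes, cKO 2 for 32 and cKO 3 for 36. No share of all probes is given for these counts, which describe the list only. The controls were close together, with a median range of 0.11 per gene, whereas the range over the cKO arrays had a median of 0.81. Without cKO 3 the median log2 fold change was -0.24. Then 36 of the 37 genes were still below 0, while 45.2% of all probes were above 0. At an unadjusted p under 0.05, 17 genes were lower, against 10.9% of all probes. That count was 28 without cKO 1 (75.7% of the members against 15.3% of all probes) and 6 without cKO 2 (16.2% against 9.74%). Without a control it was near or below the share of all probes, with 2 genes without control 1 (5.41% against 8.43%), 1 without control 2 (2.70% against 5.63%) and 2 without control 3 (5.41% against 5.16%). The 54 probes past an adjusted p of 0.05 became 1 without control 1 and 0 without any other single array. Against control 1 alone, on the slide with both genotypes, the median was -0.44 and 36 genes were below 0, but with a single control array only 1 gene was at an unadjusted p under 0.05 (2.70% against 1.98% of all probes).

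**Figure D3:**
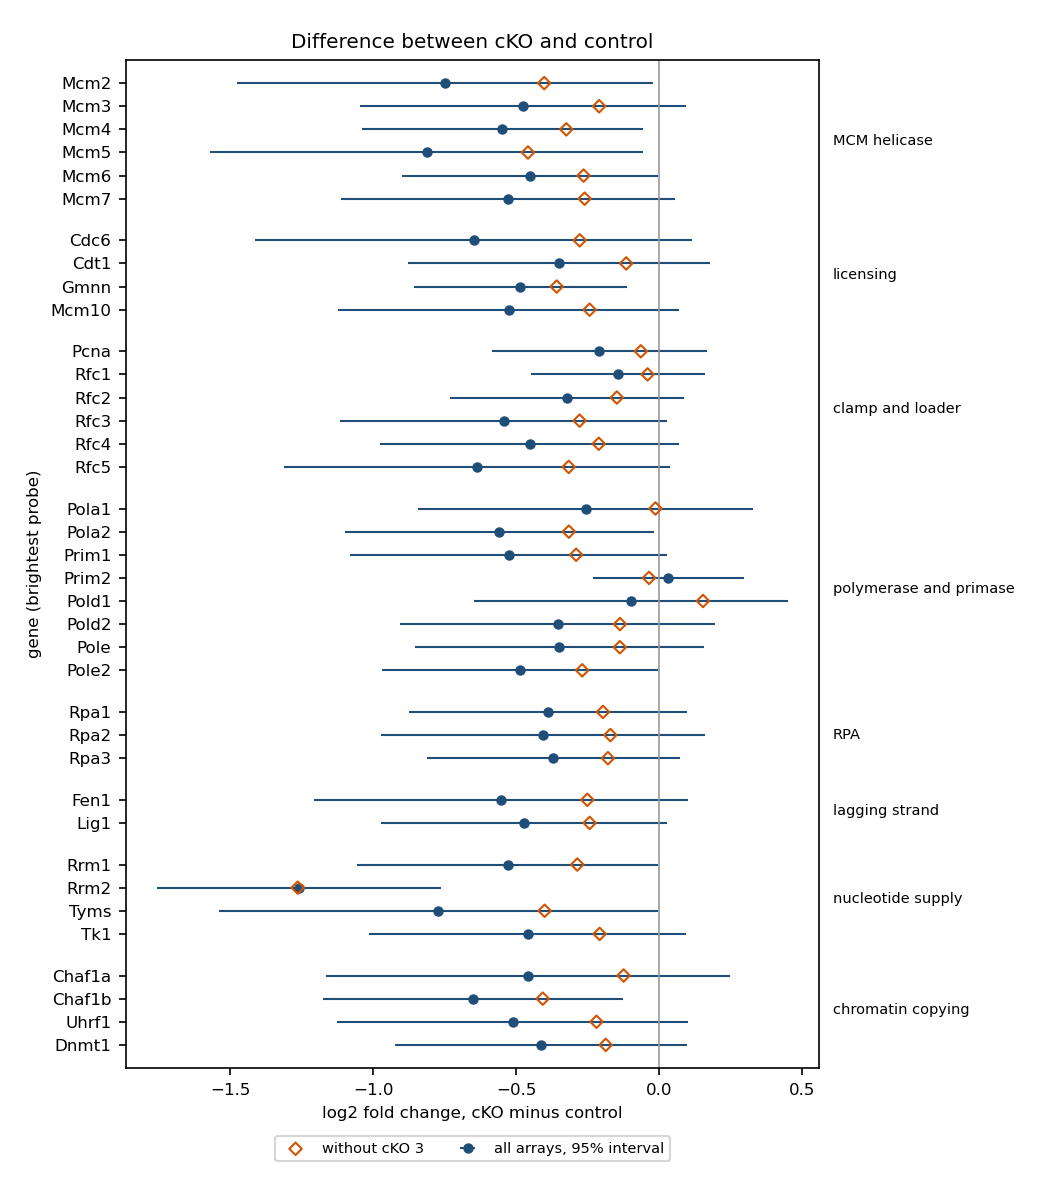
Log2 fold change of each gene, cKO minus control (x axis), from limma on all 6 arrays with its 95% confidence interval (filled circles and bars) and without cKO 3 (open diamonds). Leaving out cKO 3 brings most genes closer to 0, while Rrm2 stays at -1.26, Pold1 moves from -0.10 to 0.15 and Prim2 from 0.03 to -0.03.

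The 6 subunits of the MCM2-7 helicase, the ring that unwinds the parental strands, had mean levels below the control, and in each of the 6 the groups did not overlap, as in 20.7% of all probes. None passed the adjusted p, and 4 were at an unadjusted p under 0.05, against 11.4% of all probes. Mcm5, the one with the lowest fold change, read 4.51, 4.12 and 3.25 on the cKO arrays and 4.71, 4.79 and 4.81 on the control arrays (log2 fold change -0.81, SE 0.31, adjusted p = 0.205). Its probe lies at chr8:77651350-77651410 on mm9, the build of the array's annotation. The cKO arrays span 1.26 on the log2 scale and the controls 0.10. Mcm2 read 3.10, 2.86 and 1.94 in cKO and 3.32, 3.36 and 3.46 in control (-0.75, SE 0.30, adjusted p = 0.212), again with cKO 3 far below the others. Mcm4 read 5.17, 5.07 and 4.45 against 5.41, 5.43 and 5.48 (-0.55, SE 0.20, adjusted p = 0.196). Mcm6, whose promoter window holds 2 separate stretches of E2F-type letters, read 6.61, 6.64 and 6.06 against 6.77, 6.87 and 7.03 (-0.45, SE 0.19, adjusted p = 0.217). In both genes cKO 1 and cKO 2 lay close together, below the lowest control and above cKO 3. Mcm3 and Mcm7 had log2 fold changes of -0.48 and -0.53. Without cKO 3 the subunits ranged from -0.21 for Mcm3 to -0.46 for Mcm5.

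The genes of licensing, the loading of that helicase, were all lowest on cKO 3, as were 35.2% of all probes. In 3 of the 4 the groups did not overlap, with all cKO arrays below the controls as in 20.7% of all probes. Cdc6, the ATPase that helps place MCM2-7 on origins, read 1.49, 1.32 and 0.29 in cKO and 1.66, 1.72 and 1.68 in control (-0.65, SE 0.31, adjusted p = 0.262), which is -0.28 without cKO 3. Gmnn encodes geminin, the inhibitor that binds Cdt1 and blocks a further round of loading. It read 4.95, 4.63 and 4.41 in cKO and 5.13, 5.17 and 5.14 in control (-0.48, SE 0.15, 95% interval -0.86 to -0.11, adjusted p = 0.169). Its fold change without cKO 3 was -0.36, and cKO 2 was also well below the controls. Cdt1, the loading partner that geminin inhibits, had a fold change of -0.35, or -0.11 without cKO 3, and overlapping groups, because cKO 1 read 4.31 within the control range of 4.26 to 4.40. The log2 ratio of Cdt1 to Gmnn within an array averaged -0.69 ± 0.20 (SD) in the 3 cKO and -0.82 ± 0.09 in the 3 control cultures, a difference of 0.13 (exact permutation test, two-sided p = 0.4). Mcm10, which helps activate the loaded helicase, stood at -0.53, or -0.24 without cKO 3.

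The sliding clamp and its loader were less evenly down. Pcna, the ring that tethers polymerases and many repair factors, read 6.53, 6.59 and 6.12 in cKO and 6.51, 6.68 and 6.68 in control (-0.21, SE 0.15, 95% interval -0.59 to 0.17, adjusted p = 0.424). Only cKO 3 was below all controls, and without it the fold change was -0.06. Rfc1, the large subunit of the clamp loader, read 3.60, 3.60 and 3.29 against 3.61, 3.60 and 3.71 (-0.14, SE 0.13, 95% interval -0.45 to 0.16, adjusted p = 0.490). Its cKO 1 and cKO 2 values were level with the controls. Rfc5, a small subunit, read 4.07, 3.84 and 2.99 against 4.22, 4.28 and 4.29 (-0.64, SE 0.28, adjusted p = 0.230), with no overlap, and -0.32 without cKO 3. The other small subunits, Rfc2, Rfc3 and Rfc4, had fold changes of -0.32, -0.54 and -0.45, or -0.15, -0.28 and -0.21 without cKO 3. Their brightest probes showed no overlap. In this role all cKO arrays were below the controls for 4 of the 6 genes, as in 20.7% of all probes. The other Rfc2 probe stood at -0.32 with overlapping groups.

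The polymerases held the members with the least difference. Prim2, the large primase subunit, was the only gene above 0 and read 2.24, 2.37 and 2.51 in cKO against 2.34, 2.37 and 2.31 in control (0.03, SE 0.11, 95% interval -0.23 to 0.30, adjusted p = 0.866). Here cKO 3 was the highest of the 6 arrays and cKO 1 the lowest, and the sign turned to -0.03 without cKO 3. Its probe lies at chr1:33510733-33510792 on mm9. Prim1, the catalytic primase subunit, had a fold change of -0.53, or -0.29 without cKO 3, with no overlap. The log2 ratio of Prim1 to Prim2 within an array averaged 1.15 ± 0.58 (SD) in the 3 cKO and 1.71 ± 0.11 in the 3 control cultures (exact permutation test, two-sided p = 0.3). Pold1, the catalytic subunit of polymerase delta, read 3.96, 4.12 and 3.28 against 3.86, 3.95 and 3.84 (-0.10, SE 0.23, 95% interval -0.65 to 0.45, adjusted p = 0.802). cKO 1 and cKO 2 were above all 3 controls for Pold1, so that the value without cKO 3 was 0.15. Pola2, the accessory subunit of polymerase alpha, read -1.11, -1.29 and -1.93 against -0.98, -0.88 and -0.79 (-0.56, SE 0.22, adjusted p = 0.211). Pole2, a subunit of the leading-strand polymerase epsilon, read 0.92, 0.79 and 0.20 against 1.07, 1.14 and 1.15 (-0.49, SE 0.20, adjusted p = 0.216). Both had groups that did not overlap, whereas Pola1, Pold2 and Pole, with fold changes of -0.26, -0.35 and -0.35, had overlapping ones. Of the 8 genes of this role 3 had all cKO arrays below the controls, as did 20.7% of all probes. These overlaps are those of the brightest probes. The other tested probe of Pola2 stood at -0.26 with overlapping groups, and that of Pole at -0.54 with no overlap. Without cKO 3 the brightest probes of Pola2 and Pole2 stood at -0.32 and -0.27 and those of Pold2 and Pole both at -0.14. Pola1 was highest of all arrays on cKO 2, and at -0.01 without cKO 3.

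The RPA trimer, which coats the single strands that the helicase exposes, and the enzymes that finish Okazaki fragments had fold changes from -0.37 to -0.55, and none of these 5 genes passed either limit. Rpa1, the large subunit, read 2.96, 2.59 and 2.20 in cKO and 2.90, 3.03 and 2.99 in control (-0.39, SE 0.20, adjusted p = 0.282). Rpa2 read 2.45, 2.09 and 1.56 against 2.33, 2.40 and 2.59 (-0.41, SE 0.23, adjusted p = 0.324). In both, cKO 1 was within the control range, and without cKO 3 the values were -0.20 and -0.17. The other Rpa2 probe stood at -0.64, or -0.51 without cKO 3, also with overlapping groups, and was lowest on cKO 2. Rpa3 had a fold change of -0.37, or -0.18 without cKO 3, and no overlap. Fen1, the flap nuclease, read 3.16, 2.85 and 2.10 against 3.23, 3.22 and 3.33 (-0.55, SE 0.27, adjusted p = 0.264), and its groups did not overlap, if only narrowly for cKO 1. Lig1, the ligase that seals the nicks, read 4.95, 4.87 and 4.22 against 5.12, 5.17 and 5.17 (-0.47, SE 0.21, adjusted p = 0.230). Their values without cKO 3 were -0.25 and -0.24. All cKO arrays were below the lowest control in Rpa3, Fen1 and Lig1, as in 20.7% of all probes.

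Of the genes that supply deoxynucleotides, Rrm2 had the lowest fold change of all 37. It encodes the small subunit of ribonucleotide reductase, the enzyme that turns ribonucleotides into deoxyribonucleotides, and the subunit whose level follows S phase. Rrm2 read 3.01, 2.26 and 2.65 on the cKO arrays and 4.06, 3.80 and 3.85 on the control arrays. All 3 cKO arrays were well below the lowest control, the lowest was cKO 2, and cKO 3 lay between the other two. The log2 fold change was -1.26 (SE 0.20, 95% interval -1.75 to -0.76), or 41.8% of the control level, with an adjusted p of 0.0734. It was -1.26 without cKO 3 and -1.41 on the slide with both genotypes. The gene has 1 probe on the array, at chr12:25398619-25398674 on mm9.

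Rrm1, the large catalytic subunit of the same enzyme, read 4.31, 4.23 and 3.54 in cKO and 4.50, 4.57 and 4.59 in control (-0.53, SE 0.22, adjusted p = 0.216), lowest on cKO 3 and -0.29 without it. The log2 ratio of Rrm2 to Rrm1 within an array averaged -1.38 ± 0.55 (SD) in the 3 cKO and -0.65 ± 0.18 in the 3 control cultures, a difference of -0.73. The groups did not overlap, and the exact permutation test gave a two-sided p of 0.10, the smallest it can give here. The 4 ratios computed within an array, 2 of them for Rrm2, were chosen after the values were seen, and their p-values are not adjusted for that number. Against Tyms the log2 ratio of Rrm2 averaged -1.54 ± 0.71 in cKO and -1.06 ± 0.16 in control, but the groups overlapped, with cKO 3 above all 3 controls (exact permutation test, two-sided p = 0.4). Tyms, thymidylate synthase, read 4.67, 4.45 and 3.44 against 4.95, 5.00 and 4.93 (-0.77, SE 0.32, adjusted p = 0.216), and -0.40 without cKO 3. Its probe lies at chr5:30387605-30387664 on mm9. Tk1, the thymidine kinase of the salvage route, had a fold change of -0.46, or -0.21 without cKO 3. In all 4 genes of nucleotide supply the groups did not overlap, with all cKO arrays below the controls as in 20.7% of all probes.

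**Figure D4:**
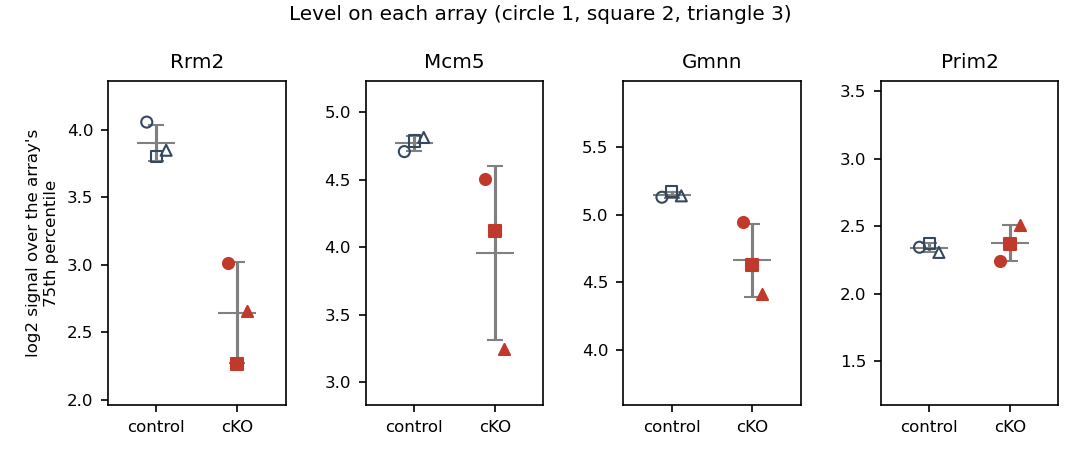
Level on each array (y axis, log2 signal over the array's 75th percentile, the same span in each panel) of Rrm2, Mcm5, Gmnn and Prim2, with the mean and SD of the 3 arrays in grey. Rrm2 is low on all 3 cKO arrays, Mcm5 is lowest on cKO 3, Gmnn is below the controls on each cKO array, and Prim2 overlaps throughout.

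Of the 4 genes that restore chromatin behind the fork, Chaf1b alone was lower at an unadjusted p under 0.05 by its brightest probe. The share of all probes was 11.4%. None of the 4 genes passed the adjusted limit. Chaf1b, a subunit of the CAF-1 chaperone that places new histones, read 3.29, 3.21 and 2.52 in cKO and 3.65, 3.63 and 3.70 in control (-0.65, SE 0.22, 95% interval -1.17 to -0.13, adjusted p = 0.177). cKO 1 and cKO 2 were also clear of the controls, and the value without cKO 3 was -0.41. Chaf1a, the large subunit, had a fold change of -0.46, or -0.12 without cKO 3, and overlapping groups, since cKO 1 read 2.39 and the highest control 2.38. Uhrf1, which recognises hemimethylated DNA at the fork, read 3.70, 3.64 and 2.79 against 3.87, 3.89 and 3.91 (-0.51, SE 0.25, adjusted p = 0.268), which is -0.22 without cKO 3. Its other probe stood at -0.63, or -0.37 without cKO 3, with no overlap and an unadjusted p under 0.05 in limma. Dnmt1, the maintenance methyltransferase that Uhrf1 recruits, had a fold change of -0.41, or -0.19 without cKO 3, and no overlap. All cKO arrays were below the controls in 3 of the 4 genes, as in 20.7% of all probes.

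Further probes were present for some of the genes. These 14 probes belong to 12 of the genes, and 4 of them, for Mcm4, Pola2, Rrm1 and Chaf1b, were too dim to be tested. All 10 that were tested had a log2 fold change below 0, as did 55.2% of all probes, from -0.78 for a probe of Tyms to -0.10 for one of Pold1. They read the same genes again and are not independent of the brightest probes. For Rfc2, Pola2, Pole and Uhrf1 they differed from the brightest probe in overlap or in the unadjusted p. Within the slide with both genotypes the Pola2 probe stood at 0.45. The 13 genes with an E2F-type match had a median log2 fold change of -0.48 and the 19 searched genes without one -0.53.

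The other genes of the pathway were taken as a list of 43, from the origin recognition complex to histone supply. Rrm2b, the p53-induced alternative to Rrm2, was well above background on 0 arrays, and the remaining 42 were tested. Of these, 38 were below 0 with a median log2 fold change of -0.46, and 29 had all cKO arrays below the lowest control, as did 20.7% of all probes. The median was -0.22 without cKO 3, with 39 below 0, and -0.43 on the slide with both genotypes, with 39 below 0. At an unadjusted p under 0.05, 14 were lower and 1 was higher, against 11.4% and 11.5% of all probes, and 0 passed an adjusted p of 0.05 in limma. The lowest were Dna2, a nuclease and helicase of the lagging strand, at -1.18 (SE 0.32, adjusted p = 0.145), and Wdhd1, which links polymerase alpha to the helicase, at -0.79 (SE 0.24, adjusted p = 0.161). Pold4, the smallest subunit of polymerase delta, went the other way and read 2.29, 2.72 and 3.66 in cKO against 2.08, 2.08 and 1.80 in control (0.90, SE 0.35, adjusted p = 0.204). It was above all controls on each cKO array, cKO 3 was the highest, and the value was 0.52 without cKO 3 and 0.81 within the slide. Orc5, a subunit of the origin recognition complex, was next at 0.26 (SE 0.14, adjusted p = 0.304), and 0.06 within the slide. The 16 genes of fork progression had a median of -0.58, or -0.34 without cKO 3, with 12 separated and lower. The 6 Orc genes had a median of -0.23, or -0.12 without cKO 3, with 2 separated and lower. Their probes disagreed, since the brightest of Orc3 and Orc4 stood at -0.01 and 0.03 while other tested probes of both genes were lower and separated.

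Regulators and markers of the cell cycle, 18 genes, had a median of -0.32, with 14 below 0, 4 lower and 0 higher at an unadjusted p under 0.05, where 11.4% of all probes were lower, and 0 past an adjusted p of 0.05. The median was -0.18 without cKO 3 and -0.32 on the slide with both genotypes. Among the E2F genes and partners the lowest were E2f8, a repressor that is itself induced in S phase, at -0.71 (SE 0.24, adjusted p = 0.179, and -0.43 without cKO 3), and E2f6, a repressor, at -0.68 (SE 0.12, adjusted p = 0.0896). E2f6 read 2.02, 1.86 and 1.68 in cKO and 2.58, 2.49 and 2.54 in control, so that the cKO arrays were close together and well below the controls, and its value without cKO 3 was -0.60. The highest were Rbl2 at 0.56 (SE 0.49, adjusted p = 0.491) and Rb1 at 0.35 (SE 0.21, adjusted p = 0.342), both pocket proteins with overlapping groups, and 0.25 and 0.14 without cKO 3. The other pocket protein, Rbl1, stood at -0.54 (SE 0.15, adjusted p = 0.148), with all cKO arrays below the controls as in 20.7% of all probes. Mki67, the proliferation marker Ki-67, read 6.30, 5.89 and 5.63 in cKO and 6.12, 6.24 and 6.39 in control (-0.31, SE 0.19, adjusted p = 0.347, and -0.15 without cKO 3), with cKO 1 inside the control range.

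**Figure D5:**
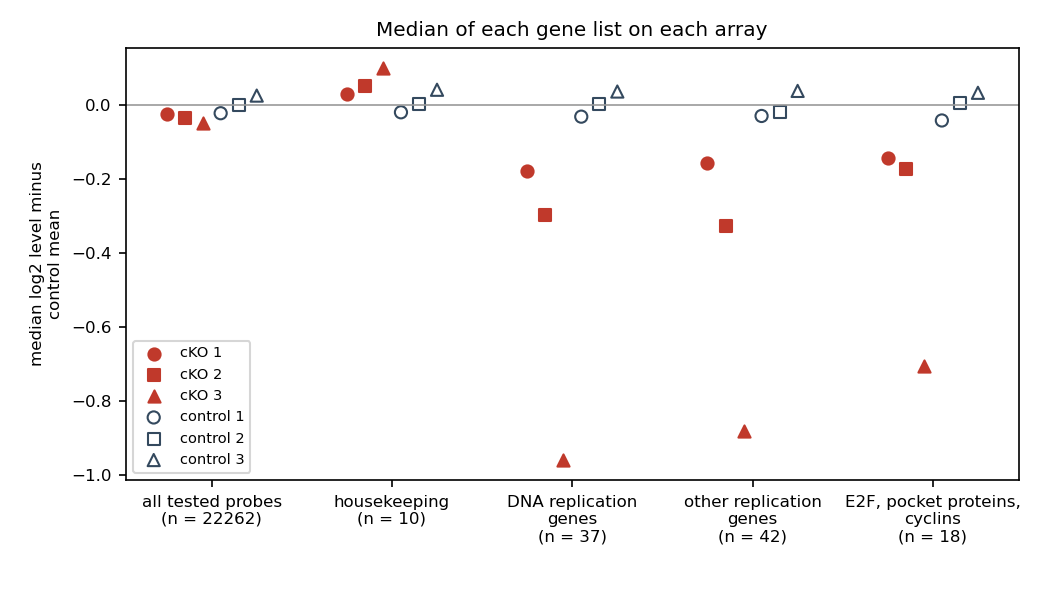
Median, over each gene list, of the log2 level on an array minus the mean of the 3 control arrays (y axis), for all tested probes, 10 housekeeping genes, the 37 DNA replication genes, 42 other replication genes and 18 cell cycle genes. Filled symbols are cKO arrays and open symbols controls. cKO 3 reads -0.96 for the DNA replication genes and -0.05 over all tested probes.

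All probes and housekeeping genes show the scale against which these values stand. Over all tested probes the median distance from the control mean was -0.02, -0.03 and -0.05 on the 3 cKO arrays, a value that the scaling of each array to its own percentile largely sets, and for 10 housekeeping genes it was 0.03, 0.05 and 0.10. The housekeeping genes had a median log2 fold change of -0.02, with 6 below 0, which was -0.02 without cKO 3 and 0.01 within the slide. Gapdh and Pgk1, both enzymes of glycolysis, were the highest of them at 0.46 (SE 0.15, adjusted p = 0.174) and 0.35 (SE 0.12, adjusted p = 0.190), and Tbp and Ywhaz the lowest at -0.28 and -0.25. At an unadjusted p under 0.05, 2 were higher and 0 lower, against 11.5% and 11.4% of all probes, and 0 passed an adjusted p of 0.05.

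The labelled cell type was checked against its markers. All 6 CD4 T-cell genes and all 6 genes of the iTreg list were well above background on 6 arrays. The CD4 T-cell list had a summed linear signal, in units of the array's 75th percentile, of 171, 185 and 214 in cKO and 161, 162 and 153 in control, with Cd3d the brightest. Cd3g and Cd4 stood at 0.74 and 0.66 in log2 fold change, 0.47 and 0.46 without cKO 3, and the lowest of the list, Cd3e, was below 0. Of the iTreg genes, Foxp3, the lineage factor, read 3.16, 3.12 and 2.45 against 3.42, 3.42 and 3.76 (-0.62, SE 0.22, adjusted p = 0.192), again lowest on cKO 3 and -0.39 without it. Ctla4, an inhibitory receptor, read 0.57, 0.95 and 1.16 against 0.24, 0.11 and -0.47 (0.94, SE 0.24, adjusted p = 0.135). The summed signal of the iTreg list was 181, 205 and 198 in cKO and 185, 178 and 140 in control. Of the 6 CD4 T-cell genes 4 were above 0, with a median log2 fold change of 0.40, and 4 were higher and 1 lower at an unadjusted p under 0.05, against 11.5% and 11.4% of all probes. Their median was 0.26 without cKO 3 and 0.35 within the slide. Of the 6 iTreg genes 4 were above 0, with a median of 0.46, and 1 was higher and 1 lower, near the share of all probes. Their median was 0.22 without cKO 3 and 0.02 within the slide, where 3 of the 6 were below 0. In both lists 0 passed the adjusted p, and their part in the result was not tested.

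Most markers of other cells were dim on these arrays. Of the 2 NK genes 0 were tested, with summed signals between 0.021 and 0.062. Of the 5 B-cell genes Cd79b was the only one tested, and the list summed to 0.547, 0.683 and 1.27 in cKO and 0.601, 0.625 and 0.382 in control, with Pax5 well above background on 0 arrays. Of the 6 myeloid genes Cd68 and Csf1r were tested, with sums of 0.262, 0.332 and 0.347 against 0.229, 0.242 and 0.386 and Lyz1 above background on 0 arrays. Of the 5 erythroid genes Gata1 and Hbb-b1 were tested, with sums of 1.03, 0.766 and 1.24 against 1.04, 1.25 and 1.28 and Alas2 above background on 0 arrays. Gata1 was lower (log2 fold change -1.56) and Hbb-b1 higher (2.10) at an unadjusted p under 0.05, and of the tested B-cell, myeloid and CD8 genes 0, 1 and 0 were at that limit by their brightest probes, with Cd68 the one, higher in cKO. Another tested probe of Hbb-b1 missed that limit and other tested probes of Cd8a met it. Of the 4 epithelial genes 3 were tested, and the list summed to 1.48, 1.30 and 1.95 against 0.870, 0.805 and 0.901, with Cdh1 the brightest (log2 fold change 1.01) and Krt8 above background on 0 arrays. All 3 tested were above 0, with a median log2 fold change of 0.61 (0.59 without cKO 3), 2 of them higher at an unadjusted p under 0.05 and separated, against 11.5% and 15.9% of all probes. Cd8a and Cd8b1 summed to 4.06, 3.87 and 4.34 against 5.34, 4.42 and 5.61, with a log2 fold change of -0.86 for Cd8a, or -0.49 without cKO 3 and -1.27 within the slide. The part of these cells in the result was not tested. For comparison, the 37 replication genes summed to 673, 628 and 417 in cKO and 736, 769 and 795 in control.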

How the data were processed

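The authors labelled total RNA from 3 cKO and 3 control iTreg cultures with Cy3, hybridised 1 array each and extracted the spots with Agilent Feature Extraction (9.1 per the labels, 10.7.3.1 per the file headers). The deposited intensity of a spot is linear, background-subtracted and not normalised between arrays. A deposited table of log2 values, read as quantile-normalised by the authors, served as an alternative, and 0 of its columns were unassigned. Each array holds 45018 spots for 41174 probes, of which 49.3% to 57.7% were well above background, and the number of arrays limits the precision.

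Spots flagged as outliers (123 to 140 per array) were dropped, spots of a probe averaged, and the array's 75th percentile subtracted on the log2 scale. Probes well above background on at least 3 arrays were tested in limma 3.58.1 (R 4.3.3, statmod 1.5.0) without covariates, with Benjamini-Hochberg adjustment over all of them, and the steps were tested on simulated data. The 33 brightest probes of members with a RefSeq accession all matched their symbol. Tables, exact tests and plots used Python 3.11.15, pandas 2.3.3, numpy 2.4.6, scipy 1.17.1 and matplotlib 3.10.9.

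Members, lists and tests were chosen with earlier results of these data known. Values on all arrays are given for the 3 highest and 3 lowest fold changes, for the brightest gene and the largest change in each role, and for up to 10 genes at an unadjusted p under 0.05, smallest first. From the other lists the 2 highest and 2 lowest are named. Rbl1, Mki67, Foxp3, Ctla4, Cd3g, Cd4 and Cd3e were added after their values were seen. Alternatives were normexp (offset 50) with quantile scaling, quantile or median scaling, the authors' table, other filters, trend and robust fitting, array weights, slide or replicate number as a term, 1 slide, the mean over a gene's probes, the test of the methods, an adjusted p under 0.10 and each array left out.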

Additional observations from a re-analysis of the deposited data

How the results depend on the processing

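Under 19 alternatives, 35 to 36 of the 37 genes were below 0. The median log2 fold change (-0.48) ran from -0.48 to -0.31 under the other settings and from -0.63 to -0.24 with each array left out, the last without cKO 3. A member passed an adjusted p of 0.05 in 2 settings, Rrm2 in each, giving 1 with a filter on all 6 arrays and 1 with array weights. The looser limit of 0.10 also gave 1. With each array left out it was 0. The count of 11 members lower at an unadjusted p under 0.05 (29.7%, against 11.4% of all probes) was 3 with median scaling (8.11% against 8.32%), 5 without the filter (13.5% against 5.64%), 2 by the test of the methods (5.41% against 8.68%), 18 with array weights (48.6% against 15.3%), 1 with slide as a term (2.70% against 2.65%), 1 on the slide with both genotypes and 7 with the mean over probes (18.9% against 11.7%), so that it was below the share of all probes with median scaling and by the test of the methods. It ran from 1 to 28 with each array left out, and members higher stayed at 0. The 54 probes past the adjusted p were 110 with normexp and quantile, 28 with quantile, 28 with the authors' table, 0 without the filter, 174 with the filter on all 6 arrays, 0 by the test of the methods, 105 with trend and robust fitting, 710 with array weights, 0 with slide as a term, 0 on that slide, 0 to 1 with each array left out and 457 at an adjusted p under 0.10. The replicate number did not pair the arrays (correlations of deviations -0.14, 0.01 and -0.19), and as a block it left 0 probes, 0 members and 5 members lower at an unadjusted p (13.5% against 7.30%). Prim2 turned to -0.012 with array weights and -0.035 without cKO 3, and Pold1 to 0.092 and 0.15, and with each array left out Prim2 ran from -0.035 to 0.099 and Pold1 from -0.26 to 0.15. The causes were not tested. On the slide with both genotypes, the lone control was assumed to vary like the cKO arrays.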
